A study of Mus musculus with 6 samples.

Results

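A group of 6 noncoding transcripts was followed through the RNA-Seq libraries of a mouse embryonic stem cell (mESC) line in which RNA polymerase II (Pol II) can be degraded. Gm26917 and Gm26924 carry parts of the ribosomal RNA (rRNA) repeat, and Gm23935 was grouped with them but not matched to rRNA here. The remaining transcripts are Rn7sk, Rpph1 and Rmrp, which are made by RNA polymerase III (Pol III). The transcripts of the group are 6 of the 39017 genes in the count tables, matched by gene symbol, and they were selected on their raw counts in these same libraries, so their levels and differences are given as a description, without a test. All 6 had at least 1 count in some library, and 5 passed the filter on low counts in both comparisons, while Rmrp did not.

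The study set out to learn how the loss of each RNA polymerase affects the folding of chromatin, and the libraries measure which transcripts were present with and without Pol II. The 3 groups held 2 libraries each. The untreated cells are V6.5 mESCs with a mAID degron and GFP on both copies of the largest Pol II subunit, RPB1, and with the auxin receptor OsTIR1 at the Rosa26 locus, and they received doxycycline at 1 μg/ml for 12 h and no auxin. The auxin 6 h cells are the same line with the same doxycycline, followed by auxin at 500 μM for 6 h. The wild-type cells are mESCs without the degron, and whether they received doxycycline is not stated in the sources used here. The degron line is 1 clone, and mESCs of this study were grown on feeder fibroblasts and passaged off them before use. The study's methods describe biological replicates for its sequencing experiments, without saying how the cultures of a group were kept apart, so the spread between libraries may be partly technical.

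Libraries held from 14094022 to 15358714 counts. All 8 pluripotent stem cell markers had at least 1674 counts in every library, and they summed to 3979 and 4472 CPM in the untreated, 3365 and 3566 CPM in the auxin 6 h and 6464 and 6427 CPM in the wild-type libraries. After auxin, Sox2, Zfp42, Nanog and Esrrb of this list were called lower by edgeR, with log2 differences of −0.78, −0.65, −0.58 and −0.54 and adjusted p of 0.000482, 0.000326, 0.00092 and 0.0129, while Pou5f1 was at 0.08. Over all tested genes 1.64% were called lower. Klf4, Tdgf1 and Dppa5a are also of this list, and their differences are not given here. The 8 retina markers were examined because the extraction text of the wild-type records names retinas, and they summed to between 0.88 and 2.77 CPM in the 6 libraries, where CPM is a gene's counts over the library total times 1000000. The 8 feeder fibroblast markers summed to 181 and 174 CPM in the untreated, 210 and 235 CPM in the auxin 6 h and 130 and 135 CPM in the wild-type libraries, and 6 of the 8 had at least 10 counts in every library, with Lum, which marks fibroblasts, at 0 in all 4 degron libraries. Polr2a, the gene of RPB1, had 6623 and 6568 counts in untreated, 10396 and 10663 in auxin 6 h and 6866 and 7129 in wild-type libraries, which says nothing of the degradation, since the degron acts on the protein.

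The rRNA genes stand in tandem repeats. Pol I transcribes each repeat into 1 long precursor that begins with an external spacer, and the spacers are cut away and degraded while the small-subunit (18S), 5.8S and large-subunit (28S) rRNAs are matured in the nucleolus. Pol III makes short RNAs that mostly have no poly(A) tail: 7SK RNA (Rn7sk), which holds the elongation factor P-TEFb in an inactive particle, the RNA of RNase P (Rpph1), which cuts the 5′ leader from tRNA precursors, and the RNA of RNase MRP (Rmrp), which takes part in cutting the rRNA precursor. Libraries made from poly(A) RNA, as the study describes them, catch such RNAs poorly, so a count here is what passed the selection rather than the amount in the cell.

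The sequences below, from the GENCODE vM21 transcripts (GRCm38, the assembly of mm10), show why the first 2 genes belong to 1 ribosomal repeat. Gm26917 (ENSMUSG00000097971) is annotated as a lincRNA at chr17:39843013-39846341 on the plus strand, with transcripts of 3329 and 869 bases. It ends 11 bases before the first base of an annotated rRNA gene, CT010467.1 (chr17:39846353-39848827), which the annotation places on the opposite strand and which is not in the count tables. Read on the strand of Gm26917, that gene opens with the conserved first bases of small-subunit rRNA, in capitals in the second line. Gm26924 (ENSMUSG00000098178, named Gm42418 in GENCODE vM21) is annotated as a lincRNA at chr17:39846958-39848788 on the plus strand and is 1831 bases long. It starts 605 bases into the 1849-base rRNA transcript, has 1244 bases inside it and 587 past its end, and its first bases hold a conserved stretch of small-subunit rRNA, in capitals in the third line.
Gm26917 end (chr17:39846282-39846341, plus strand): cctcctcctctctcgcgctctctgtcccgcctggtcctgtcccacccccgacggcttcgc
rRNA start (chr17:39846353-39846412, plus strand): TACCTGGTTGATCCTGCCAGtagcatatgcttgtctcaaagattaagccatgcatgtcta
Gm26924 start (chr17:39846958-39847017, plus strand): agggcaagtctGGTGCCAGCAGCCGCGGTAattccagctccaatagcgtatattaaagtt

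**Figure D1:**
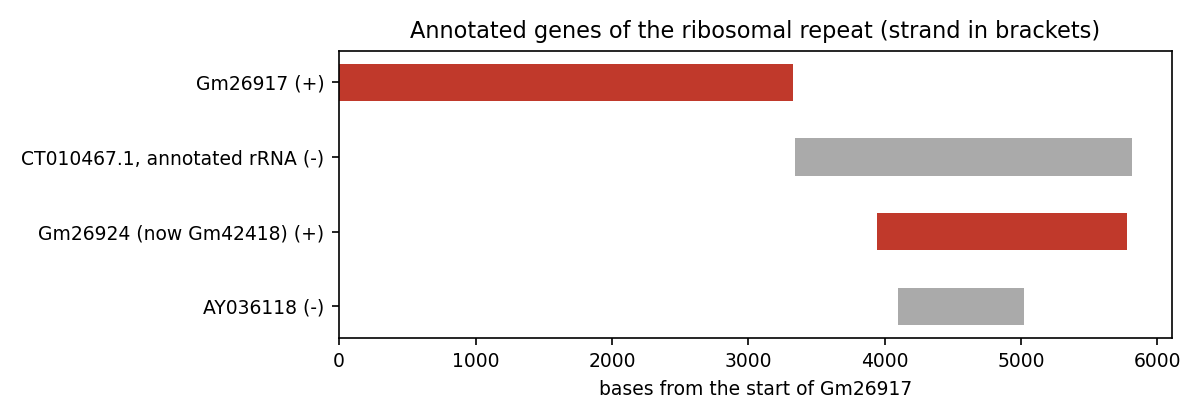
Annotated genes of the ribosomal repeat on chromosome 17, drawn to scale by distance in bases from the start of Gm26917, with the 2 counted genes in red and the genes not in the count tables in grey. Gm26917 fills the first 3329 bases, before the annotated rRNA, and Gm26924 lies within the bounds of the annotated rRNA gene.

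Gm23935 (ENSMUSG00000076258) is annotated as a miRNA gene of 57 bases at chr16:11144125-11144181 on the plus strand, inside Zc3h7a, which runs on the minus strand. Its whole sequence is shown because reads cannot be tied to this locus by it: all 8 of its 50-base stretches also occur in Gm24245 and Gm24270, and Gm24270 had between 66 and 140 counts per library. The gene was grouped with those of the ribosomal repeat, but no 28S reference was matched here, so that its place in a repeat is not shown by these data.
Gm23935 (chr16:11144125-11144181, plus strand): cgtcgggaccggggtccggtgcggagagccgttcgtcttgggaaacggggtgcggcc

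Of the Pol III genes, Rn7sk (ENSMUSG00000065037, misc_RNA, chr9:78175303-78175633, minus strand, 331 bases) shares 68.1% of its 50-base stretches with 7 other genes, such as Gm24447 and Gm26315, none of which had more than 2 counts in any library. Rpph1 (ENSMUSG00000092837, ribozyme, chr14:50807449-50807767, minus strand, 319 bases) shares 68.1% with Ccnb1ip1, whose transcripts overlap it on the same strand. The 3′ ends printed here lie in no such shared stretch. In Rpph1 the shared bases run from 36 to 268, so the bases before them are also unshared, and they are not printed. Rmrp (ENSMUSG00000088088, ribozyme, chr4:43492788-43493058, minus strand, 271 bases) has no unshared stretch, since a second Rmrp gene outside the count tables holds all of them, and Ccdc107 overlaps it on the opposite strand.
Rn7sk end (chr9:78175303-78175392, minus strand): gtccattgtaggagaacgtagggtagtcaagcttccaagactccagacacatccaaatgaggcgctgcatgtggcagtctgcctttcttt
Rpph1 end (chr14:50807449-50807499, minus strand): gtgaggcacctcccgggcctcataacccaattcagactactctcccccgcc

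What these genes share beyond the rule is a high GC content, from 58% in Rn7sk to 73.7% in Gm23935, against a median of 49.2% over the 141767 transcripts of GENCODE vM21. No run of A longer than 6 bases stands in any of them, the longest being in Gm26924. None of the 6 has an entry of its own in the RefSeq promoter table (GRCm38.p6), but the window of Parp2, whose start lies 73 bases from that of Rpph1 and points the other way, covers the sequence upstream of Rpph1. It is printed because Pol III genes of this kind are started from upstream elements, with the octamer ATGCAAAT in capitals, which stands 100 to 93 bases before Rpph1.
Rpph1 upstream (chr14:50807768-50807870, minus strand): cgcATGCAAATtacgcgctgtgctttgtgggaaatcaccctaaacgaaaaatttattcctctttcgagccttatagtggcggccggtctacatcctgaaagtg
The octamer was searched on both strands and occurs in 1.74% of the 32851 windows of 300 bases. A TATA element (TATAAA) was searched in the same way and occurs in 13.6% of the windows, but not in that of Parp2. The window of Ccdc107 reaches from 356 to 57 bases before Rmrp and holds the octamer in reverse complement at 223 to 216 bases before it. It also holds the TATA element in reverse complement, at 169 to 164 bases before Rmrp.

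The 3 genes grouped under the ribosomal repeat were all higher after auxin than in untreated cells, and the spacer gene Gm26917 differed most. Gm26917 had 3773 and 3966 counts in the untreated libraries and 10914 and 13521 counts in the auxin 6 h libraries. The groups did not overlap, and for Gm26917 the auxin 6 h libraries differed from each other more than the untreated ones did. Over all genes it was the untreated pair that varied most. The chi-square per degree of freedom between replicates was 5.32 in untreated, 2.21 in auxin 6 h and 2.48 in wild-type libraries. The share of all genes whose groups do not overlap was not counted, here or below. A lack of overlap is thus not shown to set these transcripts apart. Scaled by the library totals, the level of Gm26917 in untreated cells was 270 ± 2.5 CPM (SD, n = 2), and auxin 6 h cells reached 802 ± 129 CPM (SD, n = 2). After TMM scaling the difference was 1.56 on the log2 scale, or 2.94-fold, with an SD between replicates of 0.17. Among the 496 tested genes within 2 times its mean count, the middle 90% of differences ran from −0.21 to 0.19 on the log2 scale.

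Gm26924, which overlaps the mature small-subunit rRNA, moved less than the spacer gene. It had 12939 and 14180 counts in untreated and 19274 and 19422 counts in auxin 6 h libraries, with no overlap. The difference was 0.41 on the log2 scale, or 1.33-fold, with an SD between replicates of 0.06. Gm23935 had 4353 and 4191 counts in untreated and 6236 and 6837 counts in auxin 6 h libraries. Its difference was 0.51 on the log2 scale, or 1.42-fold, close to that of Gm26924. Gm26924 ranked 101 and 94 by count among all genes in the untreated libraries and 61 and 58 in the auxin 6 h libraries.

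The 3 genes together took up 0.149% and 0.153% of all counts in the untreated libraries, 0.237% and 0.263% in the auxin 6 h libraries and 0.107% and 0.127% in the wild-type libraries. The groups were thus ordered wild-type, untreated, auxin 6 h, without overlap. The summed feeder fibroblast markers followed the same order and the summed pluripotent stem cell markers the opposite one, both without overlap, and their part in this difference was not tested. Not every marker followed its sum. After auxin the estimates for Thy1 of the feeder list and Pou5f1 of the stem cell list went the other way. In bulk libraries fewer cells of a type and less RNA per cell cannot be told apart.

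The proportions among the 3 genes do not depend on how the libraries are scaled. The ratio of Gm26917 to Gm26924 counts was 0.292 and 0.280 in untreated, 0.566 and 0.696 in auxin 6 h and 0.632 and 0.698 in wild-type libraries. The untreated libraries thus stood below the other 4, whose ranges overlapped. The ratio of Gm23935 to Gm26924 counts was 0.336 and 0.296 in untreated, 0.324 and 0.352 in auxin 6 h and 0.322 and 0.291 in wild-type libraries. The untreated range overlapped both others, while the auxin 6 h libraries lay just above the wild-type ones. Gm26917 made up 17.8% ± 0.11 (SD, n = 2) of the counts of the 3 genes in untreated, 32.0% ± 2.8 (SD, n = 2) in auxin 6 h and 33.7% ± 1.9 (SD, n = 2) in wild-type cells.

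**Figure D2:**
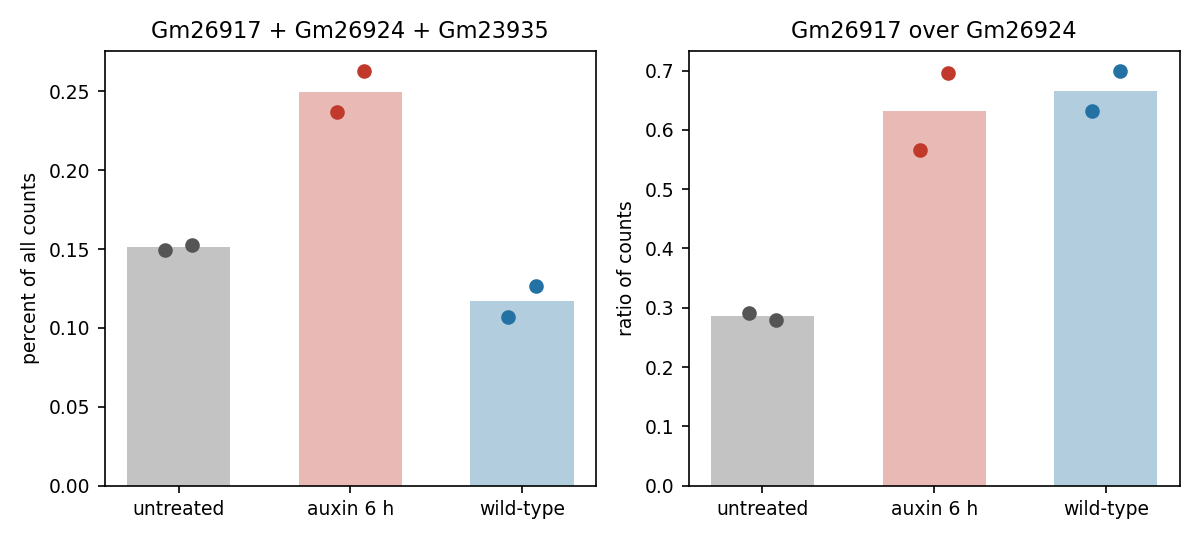
Left, counts of Gm26917, Gm26924 and Gm23935 together as a percent of all counts, and right, counts of Gm26917 over counts of Gm26924, by group; points are the 2 libraries of a group and bars their mean. The share is highest in the auxin 6 h libraries (0.237% and 0.263%), while the ratio is lowest in the untreated libraries (0.292 and 0.280) and overlaps between the other groups.

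The Pol III RNAs were counted at a far lower level. Rn7sk had 29 and 15 counts in untreated, 42 and 48 counts in auxin 6 h and 6 and 4 counts in wild-type libraries. The order was the same as for Gm26924 and Gm23935, without overlap, but the 14 counts between the untreated libraries were about as many as the 13 between the higher of them and the lower auxin 6 h library. The difference of auxin 6 h from untreated was 0.92 on the log2 scale, or 1.90-fold, with an SD between replicates of 0.50. It was 1.48 without untreated replicate 1 and 0.51 without untreated replicate 2. Among the 2896 tested genes within 2 times its mean count, the median difference was 0.13 and the middle 90% ran from −0.54 to 1.10.

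Rpph1 had 12 and 9 counts in untreated, 21 and 23 counts in auxin 6 h and 32 and 15 counts in wild-type libraries. The auxin 6 h libraries lay above the untreated ones, and the wild-type libraries spanned the auxin 6 h values. The difference of auxin 6 h from untreated was 0.96 on the log2 scale, or 1.94-fold, with an SD between replicates of 0.23. Genes of similar count spread as widely, with the middle 90% of 2669 tested genes between −0.71 and 1.73. Rpph1 reached the minimum count for testing through the auxin 6 h and wild-type libraries, where it was high. Rmrp had 0 counts in 5 libraries and 1 count in wild-type replicate 1. A count of 0 allows up to 3 counts, or between 0.195 and 0.213 CPM by library, so its level and any difference were not detectable at this depth, and these limits cover counting error only.

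**Figure D3:**
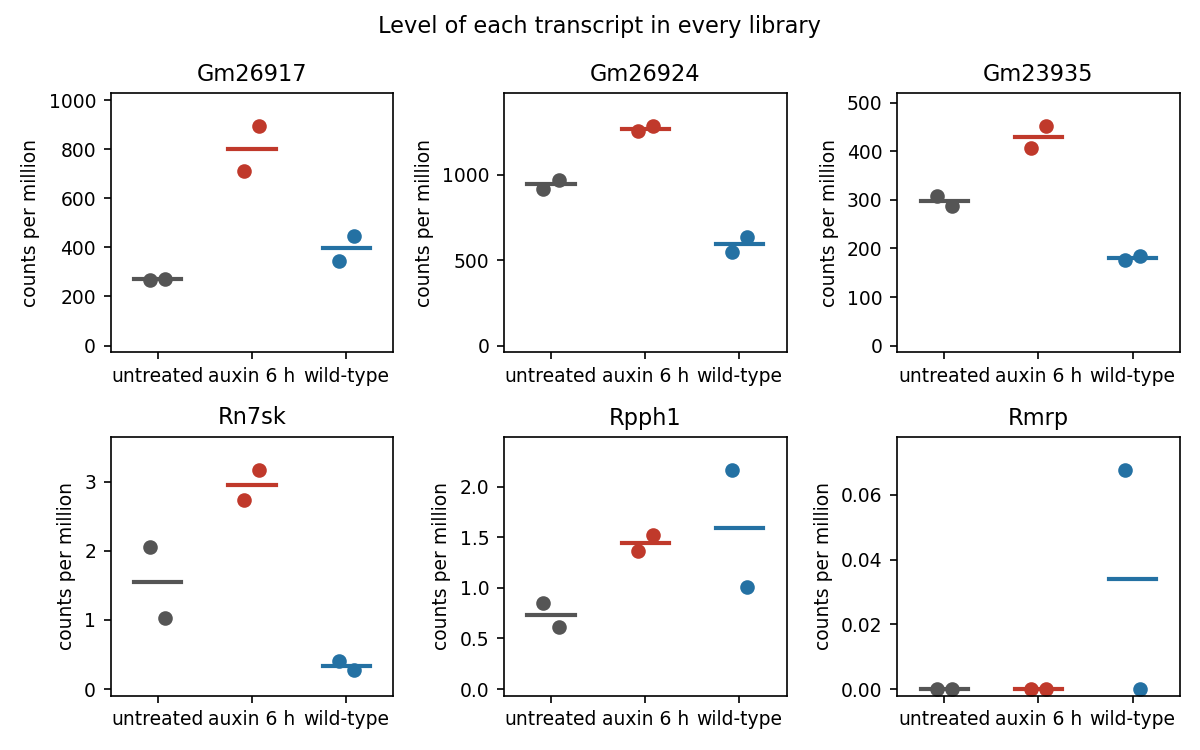
Level of each of the 6 transcripts in CPM, by group; points are the 2 libraries of a group, lines their mean, and each panel has its own linear axis. Gm26917, Gm26924, Gm23935 and Rn7sk are highest in the auxin 6 h libraries, whereas Rpph1 overlaps between auxin 6 h and wild-type and Rmrp rests on 1 count.

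Levels of different genes were compared per length of annotated exons. In untreated cells Gm26924 stood at 516 ± 20 CPM per kb (SD, n = 2) and Gm26917 at 81.0 ± 0.76 CPM per kb (SD, n = 2). Rn7sk stood at 4.66 ± 2.2 CPM per kb (SD, n = 2) and Rpph1 at 2.30 ± 0.52 CPM per kb (SD, n = 2), a difference of about the size of the spread of Rn7sk. In auxin 6 h cells the order was the same, at 693, 241, 8.92 and 4.52 CPM per kb. In wild-type cells Gm26924 and Gm26917 stood at 324 and 119 CPM per kb, and Rpph1, at 4.97 ± 2.6 (SD, n = 2), was above Rn7sk, at 1.02 ± 0.29 (SD, n = 2). With the 869-base transcript of Gm26917 as its length, its level was 310 CPM per kb in untreated cells, still under that of Gm26924, but 923 CPM per kb in auxin 6 h and 456 CPM per kb in wild-type cells, above it. Gm23935 is left out of this order, because a read can be longer than its 57 bases.

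Wild-type cells differed from untreated degron cells in opposite directions within the group under TMM scaling. The comparison uses the same untreated libraries as that of auxin, so whatever sets those 2 libraries apart by chance is in each of them, and cell line, doxycycline and library preparation cannot be told apart in it. Gm26917 had 5120 and 6627 counts in wild-type libraries, a difference of 0.61 on the log2 scale, or 1.53-fold, under TMM scaling, which was −1.48 when the libraries were scaled to mitochondrial mRNAs. Gm26924 had 8095 and 9488 counts, and its difference was −0.61, or 0.653-fold. Gm23935 had 2603 and 2758 counts and a difference of −0.66, or 0.632-fold. The counts of Gm24270, from which reads of Gm23935 cannot be told apart by sequence, went the other way. Gm24270 had 66 and 102 counts in untreated and 118 and 140 in wild-type libraries. In auxin 6 h libraries it had 120 and 131 counts, higher than in untreated ones, as for Gm23935. The value of −0.66 is thus that of the counts assigned to Gm23935, not of all reads with its sequence. Gm26917, Gm26924 and Gm23935 were without overlap between the groups, in a comparison where 60.6% of all tested genes were called by edgeR. All 3 lay inside the middle 90% of tested genes within 2 times their own mean count. That range was −0.89 to 1.02 for Gm26917, −0.91 to 1.14 for Gm26924 and −0.80 to 1.00 for Gm23935. For Rn7sk the difference was −2.10, between −2.51 and −1.54 when each library was left out, and it was tested only through the counts of the untreated libraries. For Rpph1 it was 1.16 under TMM scaling and −0.92 under scaling to mitochondrial mRNAs, and under TMM it was 0.52 without wild-type replicate 1. The tested genes within 2 times the mean count of Rn7sk had a median of −0.27, with the middle 90% between −2.84 and 1.69.

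The directions of Gm26917 and Rpph1 in this comparison depend on what is held constant. The 13 mitochondrial mRNAs took up 0.341% and 0.401% of counts in untreated, 0.399% and 0.441% in auxin 6 h and 1.53% and 1.50% in wild-type libraries. Scaled to them, the median of all genes shifted to −2.10 on the log2 scale for wild-type and −0.17 for auxin 6 h. Relative to that shifted median, Gm26917 stood at 0.62 and Rpph1 at 1.19 for wild-type, while Gm26924 stood at −0.60. For auxin 6 h no direction turned under this scaling, and the values ran from 0.24 for Gm26924 to 1.38 for Gm26917.

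**Figure D4:**
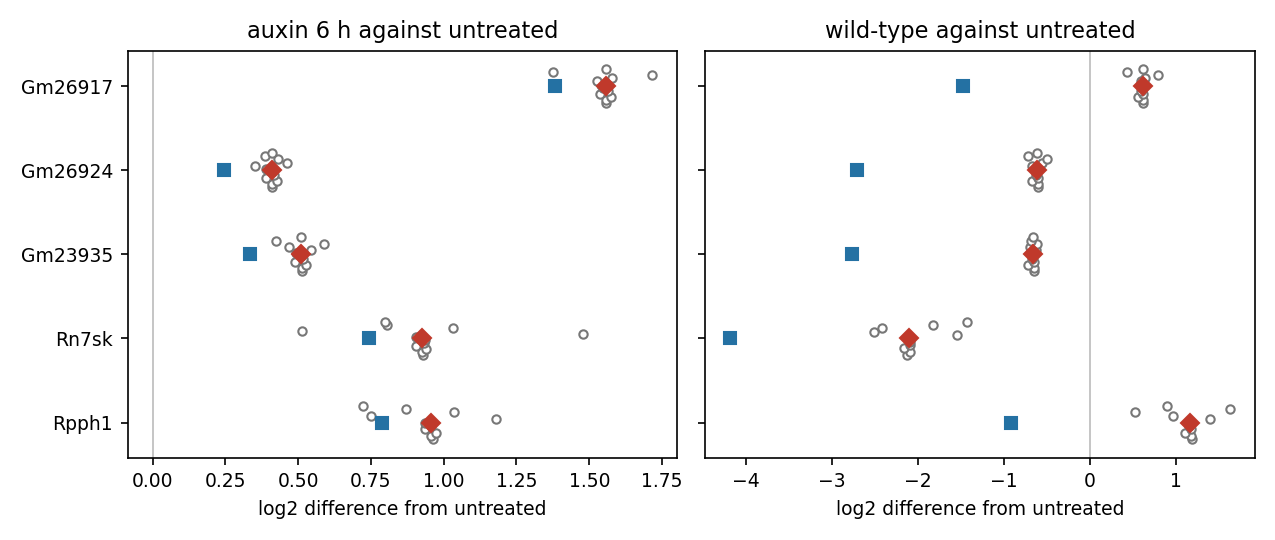
Log2 difference from untreated of the 5 tested transcripts under TMM scaling (red diamonds), under scaling to mitochondrial mRNAs (blue squares) and under each other alternative processing or with 1 library left out (open circles); the horizontal axes differ. In the auxin 6 h comparison every value lies above 0, from 0.24 to 1.72, while in the wild-type comparison Gm26917 and Rpph1 lie above 0 except under scaling to mitochondrial mRNAs, where they are at −1.48 and −0.92.

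Other short noncoding RNAs were barely counted. Of 187 genes of other Pol III RNAs, almost all of them 5S rRNA genes, 35 had a count in the auxin comparison and none reached the minimum count for testing, with 30 and 21 counts in all in the untreated and 48 and 27 in the auxin 6 h libraries. A further 174 genes are annotated as nuclear rRNA, with a median length of 110 bases. Of these, 15 are named as 5S rRNA, which Pol III makes from genes outside the repeat, and the annotation does not say which rRNA most of the other 159 resemble. Of the 159, 30 had a count, with 38 and 49 counts in untreated and 55 and 64 in auxin 6 h libraries, and of the 15, 2 had a count, with 0 and 1 against 6 and 4, and none could be tested. In the wild-type comparison 2 of the 174 could be tested and 1 was called. The called gene reached the minimum count only through the wild-type libraries, where it was high. Its call therefore gives no support for that direction. That gene, Gm23964, of 107 bases, had 6 and 7 counts in untreated and 16 and 18 in wild-type libraries (log2 difference 1.38 ± 0.43 (SE), adjusted p = 0.0154, edgeR quasi-likelihood test with Benjamini-Hochberg adjustment), and the call was lost whichever library was left out, with adjusted p between 0.0556 and 0.117.

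Among RNAs that Pol II makes without a poly(A) tail, Terc, the RNA of telomerase, had 19 and 13 counts in untreated and 59 and 55 counts in auxin 6 h libraries. It was higher by 1.72 ± 0.30 (SE) on the log2 scale, with adjusted p = 0.00776 by edgeR, and it was the only 1 of 12 such genes that could be tested. The call was lost where no filter on low counts was set, at adjusted p = 0.0645. In wild-type cells Rnu73b of the same list, with 1 and 9 counts in untreated and 23 and 26 in wild-type libraries, was higher by 2.28 ± 0.56 (SE) on the log2 scale (adjusted p = 0.00429, edgeR), and the call was lost with no filter (adjusted p = 0.0546) and under scaling to mitochondrial mRNAs (0.23 on the log2 scale, adjusted p = 0.694). Its log2 difference was 1.45 without untreated replicate 1 and 4.45 without untreated replicate 2. Rnu73b reached the minimum count for testing only through the wild-type libraries, where it was high. Its call therefore gives no support for that direction. The mitochondrial rRNAs, which a polymerase of their own makes, are the reference for rRNA outside the nucleolus. mt-Rnr1 had 7226 and 7774 counts in untreated and 9253 and 8276 in auxin 6 h libraries, and mt-Rnr2 had 13050 and 12416 against 16483 and 14623. Their log2 differences were 0.12 ± 0.08 and 0.18 ± 0.08 (SE), with edgeR adjusted p = 0.41 and 0.223, and that of mt-Rnr2 passed without untreated replicate 1 (adjusted p = 0.000665). In wild-type cells both fell, by 1.37 ± 0.06 and 1.06 ± 0.06 (SE) on the log2 scale (adjusted p = 1.5e-08 and 1.14e-07, edgeR), with 2925 and 2851 counts of mt-Rnr1.

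The proteins that make, process or bind these RNAs were read against the share of calls over all genes. After auxin, 677 of 16128 tested genes were called at an adjusted p under 0.05 by edgeR, which is 4.2%, with 413 higher (2.56%) and 264 lower (1.64%). Of the 115 tested genes of all the lists, 2 were higher and 7 lower, that is 1.74% and 6.09%, and the median log2 difference was −0.08 against 0.00 over all genes tested. The 7 lower genes became 30 without untreated replicate 1, 11 without untreated replicate 2 and 0 without either auxin 6 h replicate, and DESeq2 called 0 of them.

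Hexim1, which holds P-TEFb inactive when it is bound to 7SK RNA, was the only called gene of the 7 in the list of the 7SK particle. It had 517 and 534 counts in untreated and 1153 and 1106 counts in auxin 6 h libraries, higher by 1.00 ± 0.08 (SE) on the log2 scale (adjusted p = 1.91e-05, edgeR), and it was called in all 12 alternatives. The median of that list was −0.11. Of 15 Pol I genes, Twistnb, a subunit of Pol I, was lower by a log2 difference of −0.42 ± 0.09 (SE) (edgeR adjusted p = 0.0234). Of 30 Pol III genes 2 were lower, with Polr3a, the largest subunit, at −0.31 ± 0.08 (SE) (edgeR adjusted p = 0.0432). Of 32 rRNA processing factors 4 were lower, with Wdr43, a factor of the small-subunit processome, at −0.27 ± 0.06 (SE) (edgeR adjusted p = 0.0379). Of 11 tested RNase P and RNase MRP proteins and 17 genes of the nuclear exosome and TRAMP, which degrade spacers and other nuclear RNA, none was called by edgeR or DESeq2, while 5 and 4 had an unadjusted p under 0.05. Twistnb, Polr3a and Wdr43 each lost the call without either auxin 6 h replicate, with adjusted p between 0.128 and 0.342.

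Wild-type cells differed from untreated cells in most genes, with 9555 of 15778 tested genes called by edgeR, which is 60.6%, with 4713 higher (29.9%) and 4842 lower (30.7%). Against this background 54 of 118 tested list genes were higher (45.8%) and 17 lower (14.4%), with a median log2 difference of 0.15. Under scaling to mitochondrial mRNAs 0 list genes were higher and 115 lower, so that the directions here hold relative to the other mRNAs only. The 17 lower genes became 10 without wild-type replicate 1 and 9 without wild-type replicate 2. Of the 15 Pol I genes 8 were higher, with a median of 0.34. Rrn3, which brings Pol I to the rRNA promoter, was higher by 1.00 ± 0.08 (SE), Polr1b by 0.89 ± 0.07 (SE), Taf1a by 0.85 ± 0.15 (SE) and Polr1d by 0.58 ± 0.07 (SE) on the log2 scale.

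Of the 30 Pol III genes 14 were higher and 5 lower in wild-type cells. Polr3gl and Polr3g, which are alternative forms of 1 subunit, were higher by 1.14 ± 0.11 and 0.72 ± 0.07 (SE). Snapc3, of the complex that starts genes such as Rn7sk from upstream elements, was higher by 0.72 ± 0.08 (SE), and Pou2f1, which binds the octamer, by 0.65 ± 0.07 (SE). Polr3c and Gtf3c6 had log2 differences of −0.62 ± 0.07 and −0.59 ± 0.09 (SE). Of the 7SK list 6 of 7 were higher, among them Hexim1 by 0.72 ± 0.07 (SE). Of the 32 rRNA processing factors 16 were higher and 5 lower. Dkc1, the pseudouridine synthase of box H/ACA particles, was higher by 1.01 ± 0.08 (SE), Nolc1 by 0.69 ± 0.06, Nop10 by 0.65 ± 0.07 and Utp3 by 0.64 ± 0.07 (SE), while Nhp2, a partner of Dkc1, had a log2 difference of −0.61 ± 0.08 (SE).

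Of the 11 tested RNase P and RNase MRP proteins 3 were higher and 3 lower in wild-type cells, and Rpp21 had a log2 difference of −0.51 ± 0.12 (SE). Of the 17 exosome and TRAMP genes 5 were higher and 2 lower, with Exosc7 at 0.55 ± 0.07 and Skiv2l2, the TRAMP helicase, at 0.50 ± 0.06 (SE). The adjusted p of the genes of these protein lists named for wild-type cells lay between 6.95e-07 for Dkc1 and 0.00271 for Rpp21 (edgeR).

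**Figure D5:**
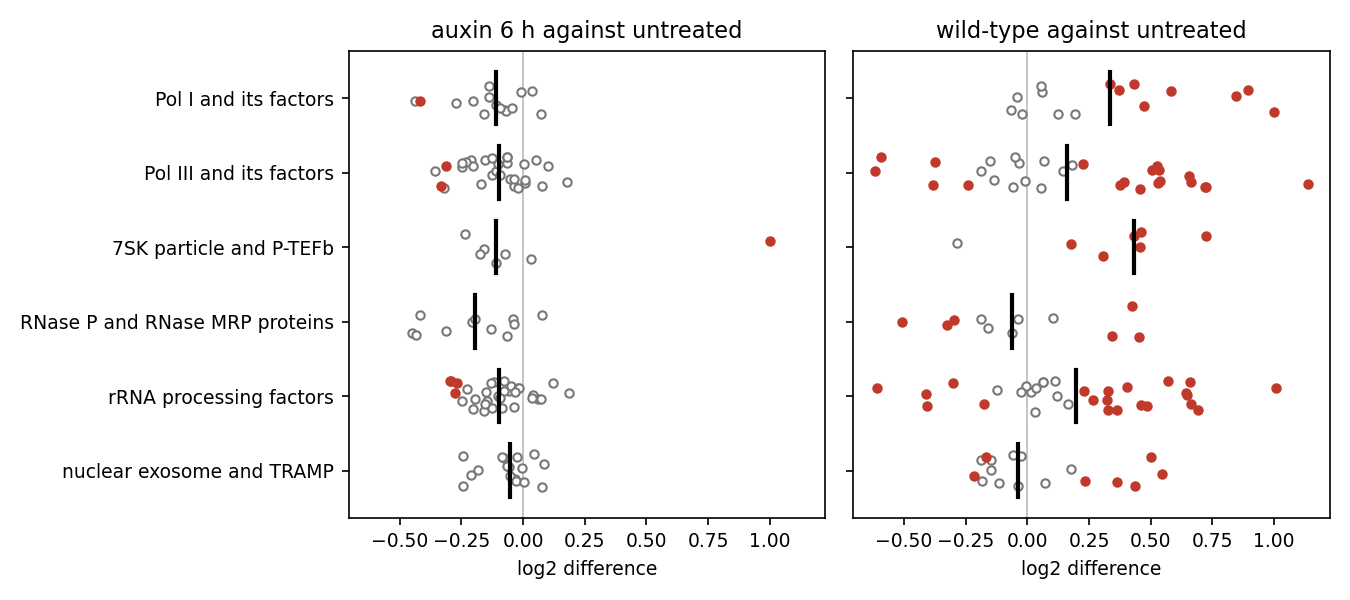
Log2 difference from untreated of every tested gene in 6 lists of proteins, after auxin for 6 h (left) and in wild-type cells (right); each point is a gene, red points passed an adjusted p under 0.05 by edgeR, open points did not, and black lines are list medians. After auxin Hexim1 stands apart at 1.00, and in wild-type cells the medians of Pol I genes (0.34) and of the 7SK list (0.43) lie above 0, while under scaling to mitochondrial mRNAs no list gene was called higher there.

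Of the protein-coding genes next to or overlapping the transcripts, none of those tested was called after auxin by edgeR, against 4.2% of all tested genes. Rsl1d1, Gsta4 and Ccnb1ip1 nevertheless had an unadjusted p under 0.05. Zc3h7a, which contains Gm23935 on the other strand, had 672 and 542 counts in untreated and 714 and 685 in auxin 6 h libraries, a log2 difference of 0.10 ± 0.10 (SE) with edgeR adjusted p = 0.64. Ccnb1ip1, which shares sequence and strand with Rpph1, had 119 and 120 counts in untreated and 82 and 88 in auxin 6 h libraries, a log2 difference of −0.59 ± 0.17 (SE) with edgeR adjusted p = 0.0758, while Rpph1 differed the other way. Parp2, on the other side of Rpph1, was at 0.04 ± 0.07 (SE). The genes on either side of Rn7sk, Ick and Gsta4, were at −0.06 ± 0.10 and −0.17 ± 0.08 (SE). Txndc11 and Rsl1d1, beside Gm23935, were at 0.18 ± 0.11 and −0.16 ± 0.07 (SE), and Ttc5, beside Rpph1, at −0.05 ± 0.08 (SE). Around Rmrp, Ccdc107 was at 0.11 ± 0.10 (SE) and Arhgef39 at 0.04 ± 0.14 (SE), and Sit1 had too few counts to test. The nearest protein-coding genes of the ribosomal repeat, Esp15 and Esp38, lie 197346 bases before Gm26917 and 101731 bases after Gm26924. In wild-type cells all 10 tested neighbours were called by edgeR, in a comparison where 60.6% of all tested genes were called. Zc3h7a was higher by 0.84 ± 0.10 (SE) on the log2 scale (adjusted p = 2.02e-05, edgeR), while the difference of Gm23935 was −0.66. Ccnb1ip1, with 147 and 198 counts, was higher by 0.54 ± 0.17 (SE) (adjusted p = 0.0174, edgeR), the same direction as Rpph1 at 1.16, and this call was lost without wild-type replicate 2 (0.32, adjusted p = 0.229) and with no filter (adjusted p = 0.0713). Parp2 was higher by 0.28 ± 0.08 (SE) (adjusted p = 0.00745, edgeR), a call lost without wild-type replicate 1 (adjusted p = 0.142). Ccdc107, with 205 and 194 counts, had a log2 difference of −0.70 ± 0.11 (SE) (adjusted p = 0.000212, edgeR). Under scaling to mitochondrial mRNAs Zc3h7a, Ccnb1ip1 and Parp2 were at −1.26, −1.55 and −1.82.

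The genes whose pattern over the 6 libraries was most like that of each transcript were sought among 10966 genes with at least 100 counts on average. The measure was the root mean square difference of centred log2(CPM + 1) values, and the libraries share their scaling. For Gm26924 these were Gnas, Gm10071 and Col1a2 (0.06, 0.07 and 0.07), and for Gm23935 they were Fbn2, Hspb6 and Igfbp4 (0.06, 0.06 and 0.07). Rn7sk was nearest to Col16a1, Fbxo32 and Pxdc1 (0.07, 0.11 and 0.11). Gm26917 was nearest to Csrnp2, Shisa2 and Nrarp, at 0.19, 0.20 and 0.24, larger distances than those of Gm26924 and Gm23935. Rpph1 was nearest to Ncoa4, Rpl35a-ps2 and Svop (0.12, 0.13 and 0.14). Rn7sk, at 0.27 to 3.17 CPM, and Rpph1, at 0.62 to 2.17 CPM, lie near the added 1, which shrinks their differences. Their nearest genes match a shrunken pattern, and their distances cannot be set beside those of the other transcripts. Col1a2 is 1 of the 8 feeder fibroblast markers, with 993 and 951 counts in untreated, 1275 and 1413 in auxin 6 h and 567 and 652 in wild-type libraries. Of that list Col1a2 was called higher after auxin (0.36 ± 0.08 (SE), edgeR adjusted p = 0.0224), while Thy1 was at −0.18 ± 0.14 (SE), and the part of feeder cells in the values of Gm26924 and Gm23935 was not tested.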

How the data were processed

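The 6 RNA-Seq libraries fall into 3 groups of 2. The study describes poly(A) RNA-Seq, while the labels give total RNA as the molecule. Per the submitters' processing notes, the authors used HISAT2 2.1.0, Salmon, HTSeq and DESeq2 with mm10; the GENCODE release and the strand setting are not given in the sources used here, so reads of genes overlapping on opposite strands, or of repeat copies, may not be told apart. The authors deposited whole-number counts per gene, not normalized, for 39017 genes in 2 tables, joined here by gene identifier. Group means and DESeq2 columns of the deposited tables (a log2 fold change, a ratio and an adjusted p-value of auxin against untreated) were not used, nor were 2 columns of counts whose names match no sample.

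Differences were tested by edgeR 4.0.16 under R 4.3.3 (glmQLFit and glmQLFTest, TMM scaling, filterByExpr with a minimum count of 10, prior count 0.125, Benjamini-Hochberg adjustment, calls at an adjusted p under 0.05), each comparison on its own 4 libraries. The code was tested on simulated data. Levels in CPM use library totals, and levels per length use GENCODE vM21, which holds 37607 of the genes. Total counts lay between 14094022 and 15358714, so counting error is large for Rn7sk, Rpph1 and Rmrp. The transcripts and the gene lists were chosen with earlier results of these data known. Named genes are the 6 transcripts, called genes of the RNA lists, from each protein list up to 4 called genes per direction with an absolute log2 difference over 0.5 or else the one with the smallest p, the nearest protein-coding genes, and the 3 most alike genes per transcript; genes overlapping a transcript and markers were added after their values were seen. Alternatives were DESeq2, other scalings and filters, a replicate block, all 3 groups in 1 fit, a prior count of 5 and leaving out each library.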

Additional observations from a re-analysis of the deposited data

How the results depend on the processing

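In the auxin comparison, the genes called higher numbered 413 and those called lower 264. DESeq2 called 175 higher and 109 lower, scaling to mitochondrial mRNAs gave 167 and 52, no filter gave 43 and 12, and the replicate block gave 1081 and 849. The minimum of 10 counts in every library gave 246 higher and 186 lower, and all 3 groups in 1 fit gave 567 higher and 668 lower, more lower than higher. With 1 library left out, in a fit that assumes that the lone library of a group varies like the other group, 142 to 1394 genes were higher and 35 to 1330 lower, the most without untreated replicate 1. Of the list genes, 7 were lower, against 0 by DESeq2, under scaling to mitochondrial mRNAs and without a filter, 2 under library totals as the only scaling and with at least 10 counts in every library, 21 with the replicate block, 18 with all 3 groups in 1 fit and 0 to 30 with 1 library left out; 2 were higher, against 1 without a filter and 2 to 4 with 1 library left out. The labels do not say whether the replicate numbers pair the samples. Same-numbered libraries deviated together with a correlation over genes of 0.0696 for auxin 6 h and −0.0289 for wild-type against untreated, which cannot decide it. The replicate block changed the number of calls, as given above, but moved no transcript's difference by as much as 1 SD. Here and below, the cause of a change was not tested.

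The log2 differences after auxin under scaling to mitochondrial mRNAs were 1.38 for Gm26917, 0.24 for Gm26924 and 0.33 for Gm23935. With 1 library left out, Gm26917 ran from 1.37 to 1.72 and Rn7sk from 0.51 to 1.48. In the wild-type comparison, scaling to mitochondrial mRNAs gave 73 genes higher and 15235 lower, 0 list genes higher and 115 lower, and log2 differences of −1.48 for Gm26917, −2.71 for Gm26924, −2.76 for Gm23935, −4.18 for Rn7sk and −0.92 for Rpph1, which turned the signs of Gm26917 and Rpph1. It also turned the signs of Polr1b (−1.21), Rrn3 (−1.09), Polr1d (−1.52), Taf1a (−1.24), Polr3g (−1.37), Polr3gl (−0.96), Pou2f1 (−1.44), Snapc3 (−1.37), Hexim1 (−1.37), Dkc1 (−1.08), Nolc1 (−1.41), Utp3 (−1.46), Nop10 (−1.45), Skiv2l2 (−1.59), Exosc7 (−1.55), Gm23964 (−0.68), Zc3h7a (−1.26), Ccnb1ip1 (−1.55) and Parp2 (−1.82), and after auxin that of mt-Rnr1 (−0.041). Library totals as the only scaling gave −0.72 for Gm23935, and a prior count of 5 gave −1.43 for Rn7sk. With 1 library left out, Rpph1 ran from 0.52 to 1.62, Gm26917 from 0.43 to 0.79 and the list genes called lower from 9 to 19. Per kb of the shortest transcript, Gm26917 stood at 310 CPM in untreated, 923 CPM in auxin 6 h and 456 CPM in wild-type cells, an alternative chosen after seeing the data. Of the values of the counts, lists and transcripts under an alternative, 206 moved by less than their spread or 1.5 times, 51 moved by more and 2 turned sign. The 206 include levels per length that could not move. The longest transcript of each gene equals its annotated length, and all genes but Gm26917 have 1 transcript. Depth limits Rn7sk, Rpph1 and Rmrp most.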
